A study of Mus musculus with 5 samples.

Results

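CpG methylation in a teratoma labelled P5_LCDM_1 was compared with that in a teratoma labelled P5_2iL. Every cytosine listed in both libraries entered, and the measure was the level in P5_LCDM_1 minus the level in P5_2iL, in percentage points. There were 3918066 such cytosines. They gave 192443 fixed tiles of 1 kb with 5 or more shared cytosines, of 829150 tiles that held a listed cytosine in any library of the series. They also gave 14729 gene-end windows, of 21887 protein coding genes. A gene-end window runs from 1000 bp outside to 500 bp inside a gene, at whichever end held more shared cytosines.

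DNA was analysed by reduced representation bisulfite sequencing, an assay of CpG methylation that samples mainly CpG-rich fragments of the genome. The series holds 5 libraries of mice of the C57BL/6x129S6 strain, 1 of muscle as control and 4 of teratomas that formed once embryonic stem cells had been injected into tetraploid embryos. The stem cell culture conditions are given as P5_2iL, P5_2iL_F, P5_a2iL_1 and P5_LCDM_1, and the labels do not spell them out. In stem cell work 2iL and LCDM are commonly names of culture media, and the title of the series concerns extended pluripotency and teratomas in adult mice. No genotype, age or sex is given for the animals, and nothing says whether a library holds 1 tumour or a pool.

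Each group has 1 library, so every value below compares 2 libraries, there is no replicate check, and no test was run. A window was called higher or lower in P5_LCDM_1 where its mean level differed by 25 percentage points or more. This is a rule of size. Only percentages were deposited, without the numbers of reads, and the depth of each value is therefore unknown. The only error measure was the spread between the strands of the same CpG, which came to 12.5 points per cytosine in P5_2iL and 14.5 in P5_LCDM_1. It leaves out the spread between animals and between library preparations. A teratoma is a bulk mixture of tissues, so a different share of a cell type and a different methylation level within each cell cannot be told apart.

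In mammals methyl groups sit mainly on the cytosines of CpG pairs. CpG-poor DNA is methylated in most cells, while the CpG-dense islands at the starts of many genes are usually free of methylation. Promoters of tissue genes with few CpGs are often methylated outside the tissue that uses them. At imprinted genes the copies inherited from the mother and the father are methylated differently, which gives intermediate levels in most tissues.

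The mean level over shared cytosines was 50.2% in P5_2iL and 45.0% in P5_LCDM_1. The 2 libraries differed less at the low end than at the high end. Cytosines under 20% made up 43.4% and 42.9% of the shared set, whereas those above 80% made up 44.1% in P5_2iL and 32.2% in P5_LCDM_1. Those from 20 to 80% made up 12.6% and 24.9%.

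Promoter sequences are shown first for 8 genes whose level lay far apart, 4 lower and 4 higher in P5_LCDM_1, to show how many CpGs carry each difference. These 8 were picked after their values were seen, from 26 promoters of named genes that passed the size rule. Each is the 250 bases before a RefSeq start of transcription on build GRCm38.p6, the same build as mm10. It is written 5′ to 3′ on the gene's strand, and capitals mark each CpG with a cytosine listed in both libraries. The RefSeq promoter table held 86 of the 115 genes chosen by the rule for naming.

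The Hoxa5 promoter (chr6:52204588-52204837, minus strand) is CpG-dense, and those of Mcts2 (chr2:152686898-152687147, plus), Cldn15 (chr5:136967619-136967868, plus) and Clec14a (chr12:58269259-58269508, minus) hold fewer CpGs.
Hoxa5: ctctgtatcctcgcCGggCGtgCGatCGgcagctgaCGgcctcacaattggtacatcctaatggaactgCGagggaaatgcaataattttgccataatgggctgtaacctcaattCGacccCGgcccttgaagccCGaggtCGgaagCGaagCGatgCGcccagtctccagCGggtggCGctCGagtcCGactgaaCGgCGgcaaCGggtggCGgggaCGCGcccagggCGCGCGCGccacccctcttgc
Mcts2: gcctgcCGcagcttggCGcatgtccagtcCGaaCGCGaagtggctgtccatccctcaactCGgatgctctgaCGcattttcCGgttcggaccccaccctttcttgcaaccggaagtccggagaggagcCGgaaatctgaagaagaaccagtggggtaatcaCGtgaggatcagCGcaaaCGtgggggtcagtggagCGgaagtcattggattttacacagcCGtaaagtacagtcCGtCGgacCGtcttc
Cldn15: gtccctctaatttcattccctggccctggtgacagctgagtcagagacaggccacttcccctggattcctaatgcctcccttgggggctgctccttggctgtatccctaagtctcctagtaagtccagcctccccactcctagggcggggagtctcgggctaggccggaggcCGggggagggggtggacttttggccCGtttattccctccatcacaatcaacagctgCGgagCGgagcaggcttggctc
Clec14a: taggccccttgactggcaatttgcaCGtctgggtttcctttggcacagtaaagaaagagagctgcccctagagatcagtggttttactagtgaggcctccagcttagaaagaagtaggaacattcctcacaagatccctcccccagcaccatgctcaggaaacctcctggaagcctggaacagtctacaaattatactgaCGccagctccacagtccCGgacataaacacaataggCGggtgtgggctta

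Higher in P5_LCDM_1 were the promoters of Angptl8 (chr9:21835260-21835509, plus), Cd27 (chr6:125237028-125237277, minus), Hoxa7 (chr6:52218574-52218823, minus) and Tdgf1 (chr9:110946159-110946408, minus).
Angptl8: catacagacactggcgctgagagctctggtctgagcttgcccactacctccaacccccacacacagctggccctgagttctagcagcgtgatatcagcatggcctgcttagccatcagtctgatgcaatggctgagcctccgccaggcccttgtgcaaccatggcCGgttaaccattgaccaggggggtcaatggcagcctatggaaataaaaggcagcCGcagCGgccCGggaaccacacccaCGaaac
Cd27: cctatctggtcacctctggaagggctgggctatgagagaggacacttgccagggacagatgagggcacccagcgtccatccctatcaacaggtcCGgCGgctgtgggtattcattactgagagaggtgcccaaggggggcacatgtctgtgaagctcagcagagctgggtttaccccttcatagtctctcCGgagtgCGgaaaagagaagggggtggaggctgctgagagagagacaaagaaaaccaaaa
Hoxa7: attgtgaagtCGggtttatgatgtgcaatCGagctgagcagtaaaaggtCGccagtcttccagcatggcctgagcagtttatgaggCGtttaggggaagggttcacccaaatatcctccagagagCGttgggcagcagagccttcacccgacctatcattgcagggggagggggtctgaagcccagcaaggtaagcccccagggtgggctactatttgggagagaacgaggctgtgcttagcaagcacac
Tdgf1: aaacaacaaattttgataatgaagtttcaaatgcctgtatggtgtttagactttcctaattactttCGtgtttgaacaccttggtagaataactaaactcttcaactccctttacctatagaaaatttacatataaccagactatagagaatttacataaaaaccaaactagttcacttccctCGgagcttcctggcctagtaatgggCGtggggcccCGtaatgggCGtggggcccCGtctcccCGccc

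Over these 250 bases the mean level at Hoxa5, a homeobox gene of body patterning, was 92.6% in P5_2iL and 3.14% in P5_LCDM_1. Of its 53 shared cytosines 51 were lower in P5_LCDM_1, 0 were higher, and 46 stood at 0%. All 32 cytosines at Mcts2 were lower, and they lay between 18.8% and 33.3% in P5_LCDM_1 against 77.8% to 100% in P5_2iL. Mcts2 is an imprinted gene that lies within an intron of H13. At Cldn15, which encodes a claudin of gut tight junctions, the 7 cytosines were at 100% in P5_2iL and at 16.7% to 33.3% in P5_LCDM_1. Of 8 cytosines at the endothelial lectin gene Clec14a 7 were lower and 1 higher, with means of 80.2% and 40.8%.

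Angptl8 encodes a secreted regulator of lipoprotein lipase. Its promoter was at 0% in P5_2iL and 87.5% in P5_LCDM_1, with 7 of 8 cytosines higher. Each single value there was either 0% or 100%, and the depth behind it is unknown. At Cd27, a receptor gene of lymphocytes, all 7 cytosines were higher, with means of 20.5% and 68.9%. The Hoxa7 promoter lay at 23.9% and 70.0% over 10 cytosines. Its gene-end window differed by 54.9 points on the plus strand and 21.2 on the minus strand, which did not pass the rule alone. The promoter of Tdgf1, which encodes the Nodal co-receptor Cripto, lay at 14.6% and 44.8%, and its 13 cytosines were all higher.

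**Figure D1:**
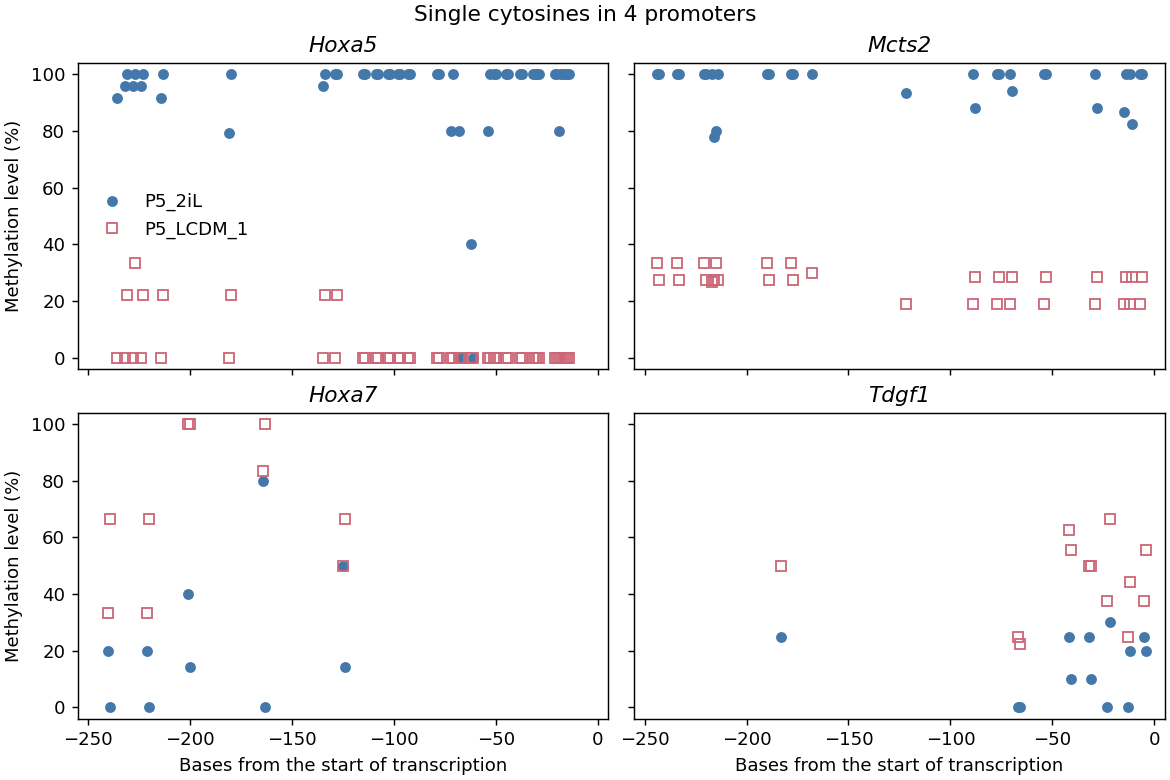
Methylation level in percent of single cytosines (points) against distance in bases from the start of transcription, in the promoters of Hoxa5, Mcts2, Hoxa7 and Tdgf1. P5_2iL is blue and filled, P5_LCDM_1 red and open. At Hoxa5 46 of 53 cytosines stood at 0% in P5_LCDM_1, whereas at Mcts2 all 32 lay between 18.8% and 33.3%. The Hoxa7 gene-end window passed the rule on the plus strand only.

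Among all 11887 promoters of this kind with 5 or more shared cytosines, 130 were higher (1.09%) and 246 lower (2.07%) in P5_LCDM_1. The number of CG pairs in the 250 bases went with the share called. Of 309 promoters with 0 to 4 pairs 17 were higher and 55 lower, which is 5.50% and 17.8%. Of 5462 promoters with 20 or more pairs 6 were higher and 10 lower, which is 0.110% and 0.183%. With 28 and 20 pairs, the Hoxa5 and Mcts2 promoters belonged to this last class.

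Across the genome, lower tiles outnumbered higher ones. Of 192443 tiles 26629 were lower in P5_LCDM_1 (13.8%) and 4795 higher (2.49%). A tile can be lower by 25 points only from a level of 25% or more, and 16.9% of the 157450 such tiles were lower. Of the 62024 tiles at 75% or less in P5_2iL, 7.73% were higher. The median tile level was 87.8% in P5_2iL and 72.8% in P5_LCDM_1, and the median difference was −5.68 points. With this median subtracted from every tile, 6902 tiles were higher and 16685 lower, so that higher tiles made up 29.3% of the calls instead of 15.3%.

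Few tiles were fully methylated in one library and unmethylated in the other. Of the tiles above 80% in P5_2iL, 51317 (42.4%) lay from 20 to 80% in P5_LCDM_1 and 361 lay under 20%. Of the tiles under 20% in P5_2iL, 4117 (12.3%) lay from 20 to 80% in P5_LCDM_1 and 120 lay above 80%. Most changes of band thus lay between an end and the middle of the scale. A change of band can be small. By the 25-point rule 20864 tiles of the class above 80% were lower, and 2366 of the class under 20% were higher.

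**Figure D2:**
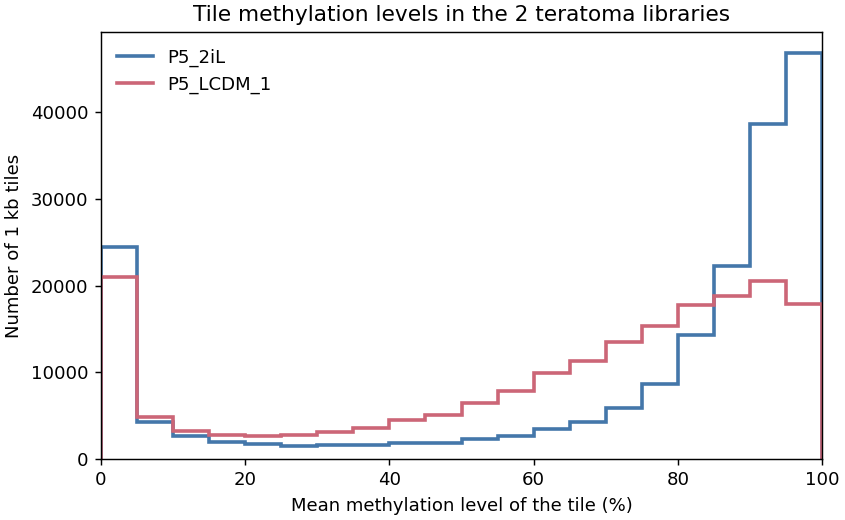
Number of 1 kb tiles (vertical axis) by mean methylation level in percent (horizontal axis, classes of 5 points) in P5_2iL (blue) and P5_LCDM_1 (red). The 192443 tiles pile up near 100% in P5_2iL, with a median of 87.8%, and are spread more widely in P5_LCDM_1, with a median of 72.8%.

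Where both strands could be measured, 163958 tiles, 13029 were lower and 2541 higher by 25 points on each strand alone, and in 475 the strands passed in opposite directions. As a background from the strands within a library, their means were 25 points or more apart in 3.55% of 130256 tiles in P5_2iL and in 7.14% in P5_LCDM_1. Tiles just inside and just outside the rule were about as many. There were 3923 tiles from −27 to −25 points and 4298 from −25 to −23, and 553 from 25 to 27 points against 572 from 23 to 25.

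The difference went with CpG density, taken as the number of cytosines that any of the 5 libraries lists in the tile. In the 42325 tiles with 5 to 9 listed cytosines the mean level was 81.4% in P5_2iL and 70.1% in P5_LCDM_1, and 20.2% of tiles were lower against 2.44% higher. With 10 to 19 the shares were 16.3% lower and 2.72% higher, and with 20 to 39 they were 10.4% and 2.68%. The direction of the mean difference changed only in the densest class. In tiles with 40 to 79 listed cytosines the means were 36.7% and 34.6%, with 2.85% lower and 2.05% higher. In the 10431 tiles with 80 or more the means were 5.38% and 6.35%, and 86 tiles were higher (0.824%) against 31 lower (0.297%).

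Part of this gradient goes with the starting level, since dense tiles are mostly unmethylated. Among tiles above 80% in P5_2iL the share lower in P5_LCDM_1 was 22.2% with 5 to 9 listed cytosines, 17.98% with 10 to 19, 12.5% with 20 to 39, 6.69% with 40 to 79 and 8.37% with 80 or more. Among tiles under 20% in P5_2iL the share higher went from 21.6% in the sparsest class to 0.739% in the densest. Among tiles from 20 to 80% in P5_2iL, where both directions are possible, the share lower went from 18.7% in the sparsest class to 3.07% in the densest. The share higher showed no such gradient there, with 5.64%, 6.66%, 7.10%, 5.65% and 4.44% from the sparsest class to the densest. Sparse tiles also rest on fewer cytosines. The median gap between the strands' differences was 10.4 points with 5 to 9 listed cytosines and 0.907 points with 80 or more, and its part in the gradient was not tested.

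**Figure D3:**
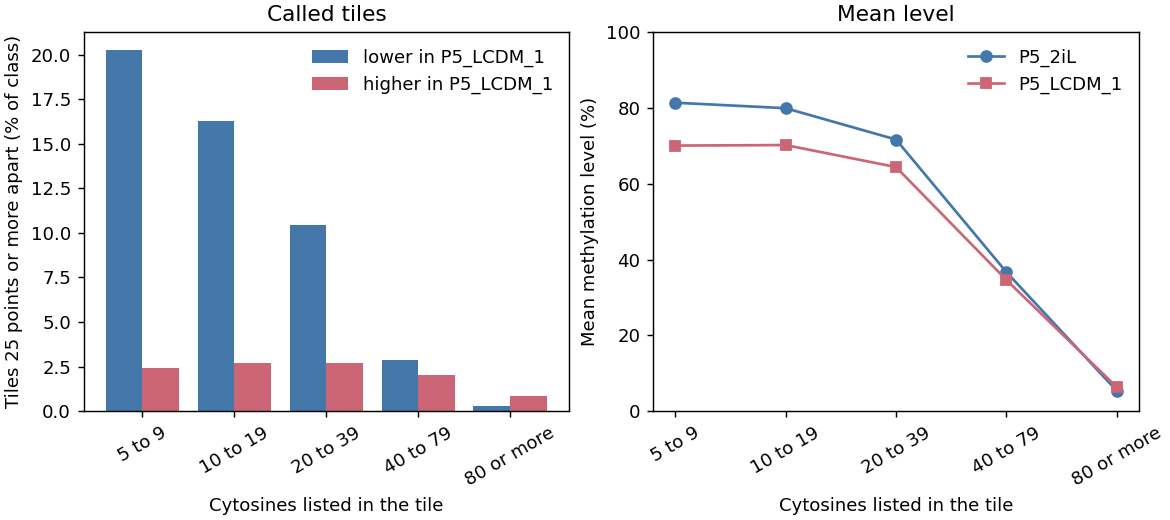
Left: share of 1 kb tiles in percent (bars, axis from 0) that were 25 points or more lower (blue) or higher (red) in P5_LCDM_1, by the number of cytosines listed in the tile. Right: mean methylation level in percent of the same classes in P5_2iL (blue) and P5_LCDM_1 (red). The lower share falls from 20.2% to 0.297%, and only in the densest class is P5_LCDM_1 the higher library, at 6.35% against 5.38%.

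Calls also differed by position relative to genes. Outside protein coding genes 18.3% of 80076 tiles were lower, inside genes 12.03% of 93375, and at gene ends 3.94% of 18992. At 10 to 19 listed cytosines, where density is similar, the shares were 19.4% outside genes, 13.8% inside and 10.2% at gene ends. Of the tiles of this class at 25% or more in P5_2iL they were 20.6%, 14.9% and 14.8%, so inside genes and gene ends were then alike. Higher tiles were spread differently, with 2.98% inside genes, 2.13% outside and 1.64% at gene ends. Chromosomes 16 and X had 17.9% and 17.0% of their tiles lower, chromosome Y 18.7% of 756, and the other chromosomes 12.04% to 15.9%.

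Most called tiles stood alone. The 26629 lower tiles formed 22724 runs, of which 19555 were a single tile, and the 4795 higher tiles formed 4227 runs, of which 3757 were single. A run joins consecutive measured tiles called the same way with no gap over 10 kb. The longest higher run had 7 tiles and lay over Lhx2, a LIM homeobox gene of forebrain and eye (chromosome 2, 38352001 to 38361000). There the mean level over 275 cytosines was 6.71% in P5_2iL and 45.6% in P5_LCDM_1. The run over the homeobox gene Irx5 lay at 7.18% and 51.3%, and that over the T-box gene Tbx2 at 9.68% and 60.0%. A run over Plekhh3 lay at 19.95% and 62.8%. The run of 5 tiles over Spi1, which encodes the myeloid and B cell factor PU.1, lay at 5.92% and 55.5% (chromosome 2, 91079001 to 91098000).

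The longest lower runs had 8 tiles. One lay in Hspg2, which encodes the basement membrane protein perlecan (chromosome 4, 137485001 to 137504000), at 77.5% in P5_2iL and 26.0% in P5_LCDM_1 over 124 cytosines. The other lay in Camta1, a calmodulin-binding transcription activator gene, at 73.9% and 43.4%. Shorter runs lay at the LIM homeobox gene Lmx1b, at Adig and Arhgap40, and at Cracd.

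Of single tiles with 20 or more shared cytosines, the largest lower one lay outside genes on chromosome 5 (75814001 to 75815000), at 93.8% in P5_2iL and 1.96% in P5_LCDM_1. Lower tiles of this size were also found inside Gfm1, Ctdspl, Rasal3 and B4galt5. The Rasal3 tile, in a Ras GTPase activating gene of blood cells (chromosome 17, 32392001 to 32393000), lay at 8.66% in muscle, 93.0% in P5_2iL, 97.6% in P5_2iL_F, 44.8% in P5_a2iL_1 and 17.6% in P5_LCDM_1, over 51 cytosines. The muscle library and P5_LCDM_1 were low there and both 2iL libraries high.

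The largest higher tile lay inside Slc39a11, a zinc transporter gene (chromosome 11, 113542001 to 113543000), at 8.82% in P5_2iL and 85.3% in P5_LCDM_1 over 31 cytosines. A further one lay inside Spi1 at 1.19% and 76.5%, 1 inside Mxra7 at 0.694% and 75.03%, and 1 inside Cdkn2b, a cell cycle inhibitor gene, at 7.79% and 81.6%. Some higher tiles were CpG-dense. A tile inside Gata6, the endoderm and heart factor gene, was at 2.03% in P5_2iL and 41.5% in P5_LCDM_1 over 209 cytosines. One inside Fignl2 was at 19.8% and 59.6% over 247. Among dense lower tiles, 1 inside Gfi1, a repressor gene of blood development, was at 68.5% and 26.1% over 122 cytosines, and 1 inside Snx20 was at 82.7% and 40.7% over 160.

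At gene ends the levels were low in both libraries, with medians of 1.19% in P5_2iL and 1.58% in P5_LCDM_1. Of 14729 windows 416 were lower in P5_LCDM_1 (2.82%) and 170 higher (1.15%). Of the 2730 windows at 25% or more in P5_2iL 15.2% were lower, and of the 12891 at 75% or less 1.32% were higher. With the median tile difference subtracted, 260 were lower and 263 higher, so higher windows made up 50.3% of the calls instead of 29.0%. This takes −5.68 points off every gene-end window, though the median difference of these windows was −0.0064. Gene-end counts and list medians under this setting are therefore shifted upwards by construction. On each strand alone 215 windows were lower and 94 higher among 14098 with both strands, and in 4 the strands passed in opposite directions. Strand was known for 17492 genes, and by it 10480 windows lay at the 5′ end of the gene, with 192 lower and 92 higher. Another 1222 lay at the 3′ end, with 127 lower and 34 higher, and 3027 could not be placed. Neighbouring genes can share a window, and 14 of the 416 lower and 16 of the 170 higher windows overlapped another one called the same way. Windows from −27 to −25 points numbered 69, as did those from −25 to −23, and there were 17 from 25 to 27 points against 24 from 23 to 25.

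The 12 largest lower gene ends, on both strands and over 10 or more cytosines, were those of Cldn15, Cavin3, Btnl9, Hcar1, Sh3d21, Mcts2, Vmo1, Eva1b, Nos3, Olfr462, Capn12 and Plekhn1. Cldn15 lay at 21.0% in muscle, 99.2% in P5_2iL, 81.6% in P5_2iL_F, 86.3% in P5_a2iL_1 and 27.1% in P5_LCDM_1, over 16 cytosines (chromosome 5, 136966869 to 136968368). The difference was −72.1 points over both strands, and −62.5 and −81.5 on each strand alone. P5_LCDM_1 and muscle were low and the other teratomas high.

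Cavin3, which encodes a coat protein of caveolae, lay at 5.15% in muscle, 94.4% in P5_2iL, 89.7% in P5_2iL_F, 65.8% in P5_a2iL_1 and 23.9% in P5_LCDM_1. Btnl9, a butyrophilin-like gene, lay at 67.2%, 96.0%, 85.9%, 79.9% and 29.1% in the same order. Here P5_LCDM_1 was the only low library, and muscle stood nearer to the other teratomas.

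Hcar1, the lactate receptor gene, had 50 shared cytosines and lay at 28.6% in muscle, 81.8% in P5_2iL, 52.3% in P5_2iL_F, 54.3% in P5_a2iL_1 and 15.5% in P5_LCDM_1. Plekhn1 lay at 5.77% in muscle, 59.6% in P5_2iL, 65.4% in P5_2iL_F, 11.5% in P5_a2iL_1 and 3.85% in P5_LCDM_1. At Plekhn1 P5_a2iL_1 was low as well. Vmo1, Capn12, a calpain gene of skin, and the olfactory receptor gene Olfr462 were lower, with differences of −60.3, −56.0 and −57.1 points. Eva1b and Sh3d21 share 46 cytosines at their facing 3′ ends and lay at −59.5 and −64.3 points.

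Mcts2 had the widest CpG coverage among these windows, with 78 shared cytosines (chromosome 2, 152686148 to 152687647). It lay at 30.6% in muscle, 97.4% in P5_2iL, 89.6% in P5_2iL_F, 82.4% in P5_a2iL_1 and 33.2% in P5_LCDM_1. Muscle and P5_LCDM_1 lay at an intermediate level, while the other 3 teratomas were above 80%. The promoter printed above shows this level at every one of its cytosines. Of 47 measured imprinted genes only Mcts2 was lower and only Klf14, a Krüppel-like factor gene, was higher. Klf14 lay at 3.93% in muscle, 1.94% in P5_2iL, 9.45% in P5_2iL_F, 7.38% in P5_a2iL_1 and 31.3% in P5_LCDM_1 over 101 cytosines. The median difference of the imprinted list was 0.129 points, against −0.0064 over all gene ends.

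The largest higher gene end was that of Angptl8, at 80% in muscle, 7.69% in P5_2iL, 0% in P5_2iL_F, 45.0% in P5_a2iL_1 and 92.3% in P5_LCDM_1. It rests on 13 shared cytosines, of which P5_2iL_F listed 3 (chromosome 9, 21834510 to 21836009). Gtsf1l, a gene of the gametocyte-specific factor family, lay at 61.7%, 7.73%, 13.5%, 56.3% and 77.2% in the same order. At both genes the 2iL libraries were low, and muscle, P5_a2iL_1 and P5_LCDM_1 were higher.

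Nr2f2, which encodes the nuclear receptor COUP-TFII of veins and mesenchyme, was different. It lay at 0% in muscle, 2.88% in P5_2iL, 3.08% in P5_2iL_F, 2.55% in P5_a2iL_1 and 58.0% in P5_LCDM_1, at its 3′ end. Only P5_LCDM_1 was methylated there, over 25 cytosines. The strands were far apart, with differences of 26.9 points on plus and 78.6 on minus over 7 cytosines each. Mab21l2, a gene of eye and limb development, lay at 25% in muscle, 2.71% in P5_2iL, 8.42% in P5_2iL_F, 29.2% in P5_a2iL_1 and 55.6% in P5_LCDM_1. Ldha, the lactate dehydrogenase A gene, lay at 64.8%, 36.0%, 29.7%, 67.4% and 87.1% in the same order. Nrbp1, Abca14, Prss57 and the blood stem cell factor gene Lmo2 were higher by 50.9, 50.0, 63.9 and 48.9 points. Prss57 was lower at its other end, at −29.2 points over cytosines listed in all 5 libraries.

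**Figure D4:**
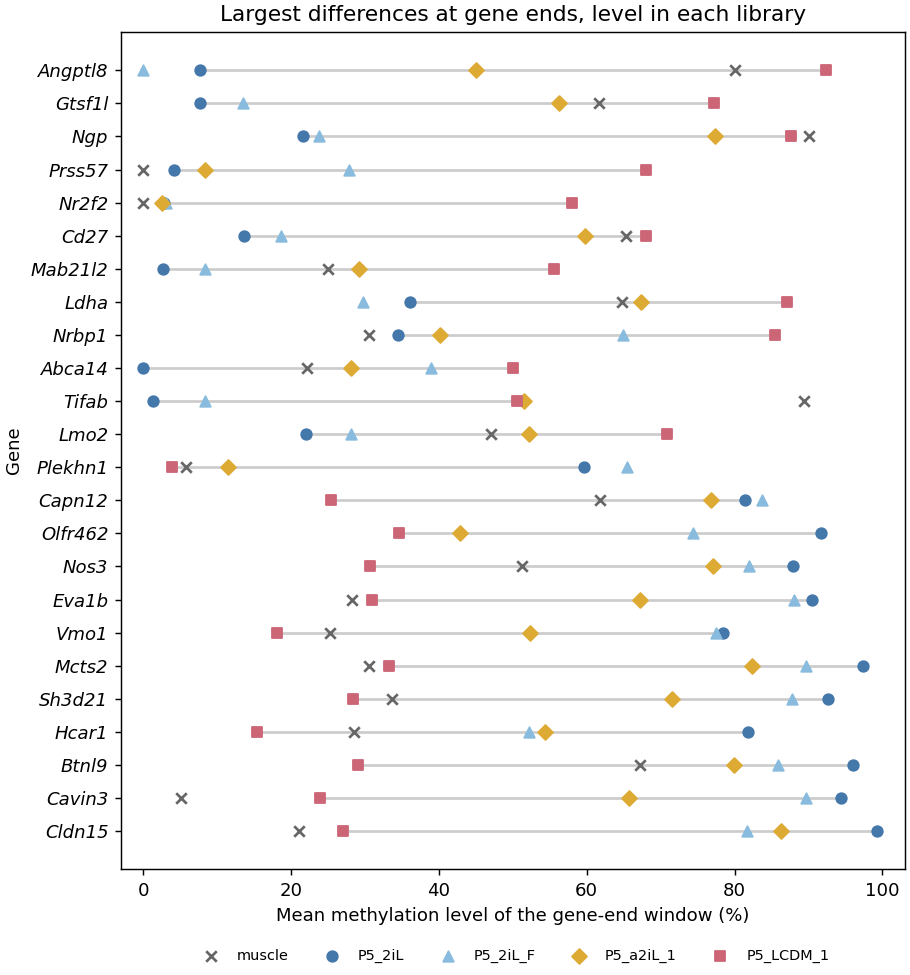
Mean methylation level in percent (horizontal axis) of the gene-end window of 24 genes in each of the 5 libraries (symbols), for the 12 largest higher and the 12 largest lower differences between P5_LCDM_1 (red squares) and P5_2iL (blue circles), joined by grey lines. P5_2iL_F triangles lie beside P5_2iL at most genes, P5_a2iL_1 diamonds often lie between, and at Nr2f2 only P5_LCDM_1 is methylated, at 58.0%.

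The other libraries did not enter the choice of these windows. P5_2iL and P5_LCDM_1 lie far apart in them by construction. Another library can lie between these levels or outside their range, as muscle did at Cavin3 and Tifab. Among 353 lower gene ends measured in all 5 libraries, P5_2iL_F was nearer to P5_2iL than to P5_LCDM_1 at 333, P5_a2iL_1 at 201 and muscle at 113. Their median levels were 57.2% in muscle, 87.5% in P5_2iL, 82.2% in P5_2iL_F, 68.9% in P5_a2iL_1 and 51.0% in P5_LCDM_1. Among 152 higher gene ends P5_2iL_F was nearer to P5_2iL at 144, P5_a2iL_1 at 83 and muscle at 77. The median levels of these higher gene ends were 32.2% in muscle, 10.2% in P5_2iL and 50.2% in P5_LCDM_1. Among 13724 gene ends that were not called the counts were 8055, 6794 and 6788. Their medians were 0.909% in muscle, 1.03% in P5_2iL and 1.28% in P5_LCDM_1. Small gaps thus decide which library is nearer there, and the counts are a weak background. Called tiles gave the same order. Of 21254 lower tiles 94.7% were nearer to P5_2iL in P5_2iL_F, 66.5% in P5_a2iL_1 and 43.7% in muscle. Among 137748 tiles that were not called these shares were 68.2%, 49.4% and 44.0%. For muscle the share of the lower tiles was near this, and that of the higher tiles was smaller. For P5_a2iL_1 the share was larger in lower tiles and smaller in higher tiles.

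Gene ends were then described by 38 lists of gene function or family, chosen with earlier results of these data known, so no list is independent evidence of its direction. For each list the counts past the rule are given beside the 1.15% higher and 2.82% lower among all gene ends. Lists that are mostly methylated in P5_2iL are better read against the 15.2% lower among the gene ends at 25% or more. Leukocyte and myeloid genes had the most higher members. Of 35 measured genes of this list 12 were higher and 4 lower, and the median difference was 8.73 points. With the median tile difference subtracted, which raises every gene end alike, the counts were 17 and 3. Its members were chosen with the low level of several leukocyte genes in P5_2iL known.

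Genes of neutrophil granules led the higher members. Ngp, the neutrophilic granule protein gene, lay at 90.1% in muscle, 21.6% in P5_2iL, 23.8% in P5_2iL_F, 77.3% in P5_a2iL_1 and 87.7% in P5_LCDM_1. Ltf, the lactoferrin gene, lay at 60%, 40%, 93.3%, 70% and 95% in the same order, over only 5 cytosines. Camp, the cathelicidin gene, was at 0% in muscle and P5_2iL, 70% in P5_a2iL_1 and 50.0% in P5_LCDM_1, also over 5, and was not measured in P5_2iL_F. At Ngp both 2iL libraries were low and the other 3 high, which did not hold for Ltf or Camp.

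Tifab, a regulator of innate signalling in blood cells, lay at 89.4% in muscle, 1.36% in P5_2iL, 8.36% in P5_2iL_F, 51.5% in P5_a2iL_1 and 50.6% in P5_LCDM_1. Further members are named after their values were seen. Cebpe, a granulocyte transcription factor gene, lay at 67.8% in muscle, 11.7% in P5_2iL, 11.3% in P5_2iL_F, 60.1% in P5_a2iL_1 and 57.9% in P5_LCDM_1. Tyrobp, the DAP12 adaptor gene, lay at 63.1%, 0.246%, 9.76%, 32.4% and 43.6% in the same order, and shares its window with the adaptor gene Hcst. The Rac activator gene Dock2 lay at 61.5%, 0.311%, 8.88%, 42.1% and 43.6%. Muscle was the highest library at Tifab, Cebpe, Tyrobp and Dock2, P5_2iL and P5_2iL_F were low, and P5_a2iL_1 and P5_LCDM_1 lay between.

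The 4 lower members were Alox5ap, Cd68, Runx3 and Spi1. At Spi1 the direction depended on position. Its chosen end was at 40.2% in muscle, 95.6% in P5_2iL, 90.6% in P5_2iL_F, 51.0% in P5_a2iL_1 and 65.6% in P5_LCDM_1, while the run of 5 higher tiles described above lies in the same gene. Alox5ap, needed for leukotriene synthesis, was likewise lower at the chosen end, at 95.7% in P5_2iL and 41.6% in P5_LCDM_1. At its other end it was at 0% and 61.9% over 7 cytosines. At both genes parts of 1 locus thus lay in opposite directions.

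Lymphocyte genes were split, with 4 of 34 higher and 7 lower and a median difference of −2.42 points, which became 3.26 with the median tile difference subtracted. The co-stimulatory receptor gene Cd27 lay at 65.3% in muscle, 13.7% in P5_2iL, 18.6% in P5_2iL_F, 59.8% in P5_a2iL_1 and 68.0% in P5_LCDM_1. Cd7 was higher by 55.6 points over 6 cytosines. The inhibitory receptor gene Lag3 went the other way, at 5.45% in muscle, 75.6% in P5_2iL, 79.1% in P5_2iL_F, 60.0% in P5_a2iL_1 and 26.0% in P5_LCDM_1. The recombination gene Rag1, the T cell kinase gene Zap70 and the T cell receptor gene Cd3e, named after their values were seen, differed by −43.0, −30.7 and −31.3 points. Of 22 chemokine and chemokine receptor genes 3 were higher and 0 lower, Ccr10 by 38.3 points and the neighbours Ccl3 and Ccl4, which share 9 cytosines, by 36.7 and 33.6.

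Endothelial genes were called in 1 direction only. Of 37 measured genes 6 were lower and 0 higher, while the median difference of the list was −0.467 points, and 5.21 with the median tile difference subtracted, when 5 were lower and 0 higher. Of its 14 windows at 25% or more in P5_2iL 42.9% were lower. Nos3, the endothelial nitric oxide synthase gene, lay at 51.2% in muscle, 87.8% in P5_2iL, 82.0% in P5_2iL_F, 77.0% in P5_a2iL_1 and 30.6% in P5_LCDM_1 over 30 cytosines. Plvap, which encodes a protein of endothelial diaphragms, lay at 22.8%, 72.5%, 69.5%, 44.0% and 26.2% in the same order. Gpihbp1, which holds lipoprotein lipase on capillaries, lay at 86.4%, 88.3%, 81.4%, 74.2% and 45.8%. P5_LCDM_1 was the lowest library at Nos3 and Gpihbp1, and muscle was at Plvap. Clec14a, the receptor kinase gene Tie1 and Arhgef15 differed by −39.2, −35.2 and −29.8 points. Tie1 was named after its values were seen.

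Of 46 genes of endoderm and simple epithelium 7 were lower and 1, the claudin gene Cldn6, was higher, by 33.3 points over 6 cytosines. This split was lost with the median tile difference subtracted and at the gene start by coordinate, each with 2 higher and 3 lower. Krt7, a keratin gene of ducts, lay at 39.6% in muscle, 96.5% in P5_2iL, 86.3% in P5_2iL_F, 66.0% in P5_a2iL_1 and 42.3% in P5_LCDM_1 over 52 cytosines. Krt8, a keratin gene of simple epithelium, lay at 72.3%, 80%, 72.5%, 56.7% and 38.8% in the same order. Of 41 keratins 6 were lower and 0 higher, and the list's median difference was −12.9 points, or −7.19 with the median tile difference subtracted. The 6 were 17.1% of the 35 keratin windows at 25% or more in P5_2iL, near the 15.2% among all such gene ends. The gut homeobox gene Cdx1 lay at 11.9% in muscle, 62.3% in P5_2iL, 49.5% in P5_2iL_F, 35.8% in P5_a2iL_1 and 35.7% in P5_LCDM_1 over 132 cytosines. P5_a2iL_1 and P5_LCDM_1 were nearly equal there.

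Called members of the skeletal muscle and germline lists were all lower in P5_LCDM_1. Both lists were highly methylated in P5_2iL, with medians of 77.4% and 88.7%. Of 43 skeletal muscle genes 6 were lower and 0 higher, with a median difference of −8.98 points. The 6 were 20% of the 30 windows at 25% or more in P5_2iL. The troponin gene Tnni1 lay at 39.6% in muscle, 88.6% in P5_2iL, 77.1% in P5_2iL_F, 57.3% in P5_a2iL_1 and 49.6% in P5_LCDM_1. The creatine kinase gene Ckm lay at 46.8%, 85.1%, 73.8%, 64.5% and 59.2% in the same order. At both, muscle was lowest and P5_LCDM_1 was the lowest teratoma. Mb, the myoglobin gene, differed by −36.3 points at its 3′ end, whereas at its transcription start the difference was 6.41 points.

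Of 49 germline genes that methylation keeps off in other tissues 5 were lower and 0 higher, with a median difference of −7.65 points. The 5 were 11.6% of the 43 windows at 25% or more in P5_2iL, below the 15.2% among all such gene ends. Tdrd6, a Tudor domain gene of spermatids, lay at 31.6% in muscle, 88.7% in P5_2iL, 80.9% in P5_2iL_F, 75.2% in P5_a2iL_1 and 46.4% in P5_LCDM_1. Stk31, at 100% in P5_2iL and 60.9% in P5_LCDM_1, the meiotic gene Sycp3, the piRNA pathway gene Piwil1 and the protamine gene Prm1 were the others. Taken as the median over cytosines, Stk31 differed by 0 points. With the median tile difference subtracted 2 germline genes were lower and 1 higher, and 3 muscle genes were lower and 0 higher. Olfactory receptor genes, which lie in CpG-poor clusters and are silent outside the nose, had 13 of 59 measured members lower and 0 higher, with a median difference of −13.1 points. Among all gene ends above 80% in P5_2iL with few listed cytosines the share lower was alike, at 22.3% with 5 to 9 and 21.4% with 10 to 19, and of the 55 olfactory windows at 25% or more it was 23.6%.

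**Figure D5:**
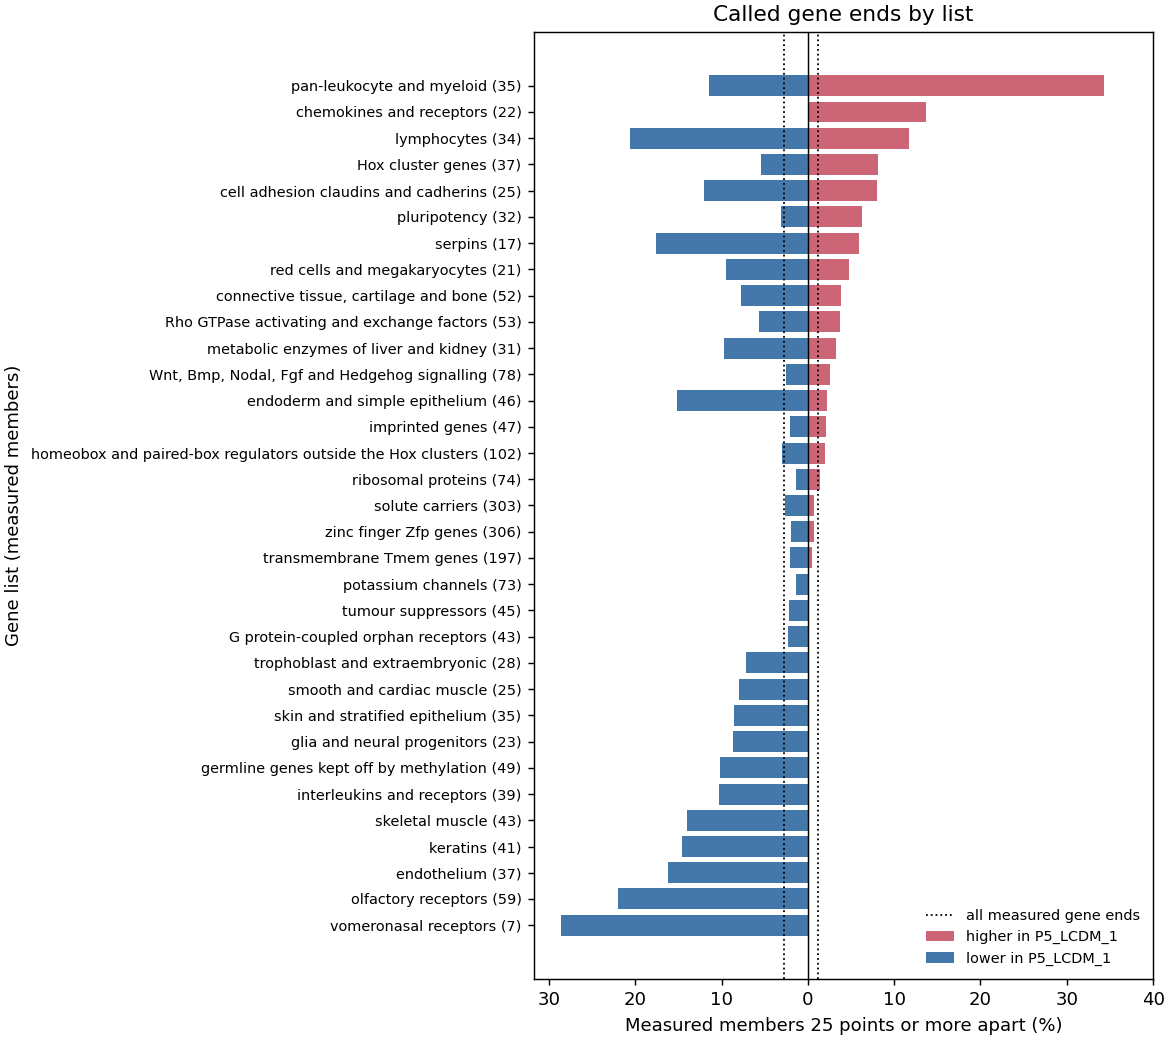
Share of measured members in percent (bars, numbers of measured members in brackets) whose gene end was 25 points or more lower (blue, to the left) or higher (red, to the right) in P5_LCDM_1, for the lists with a called member. Dotted lines mark the 2.82% lower and 1.15% higher among all gene ends. The leukocyte and myeloid list has 12 of 35 members higher, while endothelium, keratins, skeletal muscle, germline genes and olfactory receptors have lower members only. Most gene ends are unmethylated and cannot be lower by 25 points, and among those that can the share was 15.2%.

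Developmental regulators lay mostly at low levels in both libraries, with exceptions in the HoxA cluster. Of 37 measured Hox genes 3 were higher and 2 lower, with a median difference of 0.963 points. Hoxa5 lay at 27.4% in muscle, 91.1% in P5_2iL, 76.9% in P5_2iL_F, 76.3% in P5_a2iL_1 and 35.8% in P5_LCDM_1 over 135 cytosines, and Hoxa6 shares all 135 of them. Beside them in the cluster, Hoxa7 lay at 26.6% in muscle, 27.7% in P5_2iL, 29.0% in P5_2iL_F, 34.1% in P5_a2iL_1 and 65.6% in P5_LCDM_1. Hoxa9 lay at 18.3%, 13.1%, 13.6%, 26.8% and 45.0% in the same order. Neighbouring genes of 1 cluster thus lay far apart in opposite directions, and P5_LCDM_1 was the highest library at Hoxa7 and Hoxa9. By strand, Hoxa7 differed by 54.9 points on plus and 21.2 on minus, and Hoxa9 by 21.1 and 41.5. Neither passed the rule on both strands, while Hoxa5 and Hoxa6 did. Hoxd4, named after its values were seen, was at 21.8% in P5_2iL and 50.5% in P5_LCDM_1.

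Of 102 other homeobox and paired-box genes 2 were higher and 3 lower, near the 1.15% and 2.82% among all gene ends. Only 6 of these windows were at 25% or more in P5_2iL, and 50% of the 6 were lower. Dlx1, a gene of forebrain interneurons, was at 13.6% in muscle, 8.82% in P5_2iL, 14.1% in P5_2iL_F, 20.3% in P5_a2iL_1 and 39.3% in P5_LCDM_1. By strand it differed by 36.6 points on plus and 22.4 on minus. Pax8, a kidney and thyroid factor gene, was at 50.0% in P5_2iL and 88.8% in P5_LCDM_1 over 7 cytosines, all on the minus strand. Neither Dlx1 nor Pax8 passed the rule on both strands. The list's median level in P5_2iL was 4.11%. Its median difference over all 102 members was 1.98 points, against −0.0064 over all gene ends. Over the 11821 gene ends under 20% in P5_2iL it was 0.0418, but these were not matched to the list for CpG density. Of 58 forkhead, Sox, T-box and Gata genes 0 were called, and their differences ranged from −7.94 to 15.8 points. Only 9 of these windows were at 25% or more in P5_2iL and could be called lower. At Gata6 the higher tile described above lies inside the gene and not in its gene-end window.

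Of 78 genes of the Wnt, Bmp, Nodal, Fgf and Hedgehog pathways 2 were higher and 2 lower. Of the 71 windows at 75% or less in P5_2iL 2.82% were higher, against 1.32% among all such gene ends. Of the 11 at 25% or more 18.2% were lower, against 15.2%. The higher genes were both of the Nodal pathway and are also pluripotency genes. The Nodal pathway was not counted as a list of its own. Nodal, the ligand, lay at 0% in muscle, 7.28% in P5_2iL, 11.9% in P5_2iL_F, 2.38% in P5_a2iL_1 and 35.3% in P5_LCDM_1. It rests on 20 cytosines, of which 18 were on plus and 1 on minus, so the minus strand alone was not measured. Its co-receptor gene Tdgf1 lay at 39.2%, 29.3%, 22.2%, 31.1% and 56.4% in the same order over 61 cytosines. P5_LCDM_1 was the highest library at both. The Nodal antagonist gene Cer1 and the myogenic growth factor gene Fgf6 were lower, with differences of −28.7 and −28.2 points. Among 32 pluripotency genes Fbxo15 was the only lower one, at −30.8 points. Pou5f1, which encodes Oct4, did not reach the rule, with 59.4% in P5_2iL and 76.0% in P5_LCDM_1.

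Several lists had 0 members past the rule in either direction. These were 46 neuronal genes, with differences from −24.3 to 13.6 points, 40 clustered protocadherins, 23 genes of the DNA methylation machinery and 17 histones. In the same order only 7, 34, 3 and 0 of these windows were at 25% or more in P5_2iL. The remaining windows could not be called lower. Glia had 2 of 23 lower, Mag and Olig3, and 0 higher. Tumour suppressors had 1 of 45 lower, Runx3, over 6 cytosines, and 0 higher. Connective tissue genes had 2 of 52 higher and 4 lower. Col9a3, a cartilage collagen gene, was at 21.8% in P5_2iL and 55.0% in P5_LCDM_1 over 86 cytosines, and Col3a1, a fibroblast collagen gene, was at 93.8% and 60.9% over 8.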

How the data were processed

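The series has 5 groups with 1 bisulfite library each, and P5_LCDM_1 was compared with P5_2iL. The files deposited by the authors give a methylation percent per CpG cytosine, listed for each strand, without read numbers. They were made with Trim Galore 0.6.4 and Bismark on mm10, per the submitters' processing notes. The coverage minimum is not given in the sources used here, so depth is known only as cytosines listed, which were 4892985 in P5_2iL and 4601508 in P5_LCDM_1 (4017125 to 5323090 over the series). All 493627 listed cytosines within 32851 RefSeq promoters fell on a CG when positions were counted from 1.

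Each cytosine had equal weight. A window needed 5 shared cytosines, and 25 points made a call. Gene positions came from a RefSeq table of GRCm38.p6. The rule for naming took the 12 largest differences each way over 10 or more cytosines and both strands, up to 4 called members per list, and 16 tiles, and passed over 2 predicted genes. It gave 115 genes, of which those that show a list's pattern are described. The members, lists, rules and tests were chosen with earlier results of these data known. The code was tested on simulated data. Tools were pandas 2.3.3 and NumPy 2.4.6 under Python 3.11.15, and matplotlib 3.10.9. Other thresholds, minimums, tile sizes and windows were tried.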

Additional observations from a re-analysis of the deposited data

How the results depend on the processing

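No paired analysis was possible because each group has 1 library. For the same reason no replicate could be left out. At a threshold of 15 points 9276 tiles were higher and 55023 lower, and 385 gene ends were higher and 876 lower. At 40 points the counts were 1931 and 7562 tiles and 58 and 112 gene ends. With a minimum of 3 shared cytosines 7440 tiles were higher and 41947 lower, and with 10 the counts were 2475 and 10785, with 239 gene ends lower. With the median tile difference subtracted 16685 tiles were lower, and 263 gene ends were higher and 260 lower. At transcription starts of known strand 108 gene ends were higher and 223 lower. With the median over cytosines the mean difference was −12.5 points in tiles with 5 to 9 listed cytosines and 0.573 points in those with 80 or more. The other summary counts stayed within 1.5 times the main one under the tile sizes, shifted tiles, cytosines listed in all 5 files, autosomes and the shorter window.

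Of 1162 values of the 131 named genes and tiles under other settings, 1066 kept their direction and the size rule, 88 kept the direction alone, and 8 reversed. Prss57 became −29.2 points when only cytosines listed in all 5 files counted, which moved its window to the other gene end. At the gene start by coordinate Alox5ap was at 61.9 points, Il17re at 1.63 and Cyp26c1 at −10.2. At the transcription start Il17re and Cyp26c1 had the same values, Sh3d21 was at 1.48 and Mb at 6.41. In these the window lies at another end of the gene. Density from CG pairs of the genome was not run for tiles, since no genome sequence was used here, and a minimum of 10 leaves no value for tiles with 5 to 9 listed cytosines. Depth is unknown, so a difference over few cytosines, as at Camp, Ltf or Cldn6, has no stated precision. The same holds where every single value in the promoter was 0% or 100%, as at Angptl8, Stk31 and Abca14.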
